A study of Mus musculus with 3 samples.

Results

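Collagens are the main structural proteins of the extracellular matrix, and the genes described here are all those whose symbol has the form Col, a number, the letter a and a chain number. The rule uses names alone and found 44 genes among the 31053 in the deposited tables. Each was detected in each of 3 mouse brain sections, which makes the set complete in every library although most members were rare. The sections came from C57BL/6J mice and were cut fresh frozen at 10 µm onto a 10x Visium array, on which barcoded spots capture polyadenylated RNA from a patch of tissue. There was 1 section in each of 3 groups: Y-Ctrl, with the treatment label Control, O-Ctrl, also Control, and O-Ex, Exercise. By the title of the series, which names exercise and brain aging, Y and O were read as young and old. The labels state no age, no kind or length of exercise and no number of animals, and they call the molecule nuclear RNA although whole sections lay on the array.

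Every collagen molecule is a triple helix of 3 chains. In some types the chains are products of different genes, as in type I, and in others, such as type III, of a single gene. Fibrillar collagens (types I, II, III, V, XI, XXIV and XXVII) form rope-like fibrils and are made in the brain mainly by fibroblasts of the meninges and of large vessels. Type IV collagen forms the sheet-like network of basement membranes, which wrap every brain vessel and cover the brain surface. Other classes are the short-chain network collagens of type VIII, the beaded filaments of type VI and fibril-associated collagens such as type IX. There are also the multiplexins of types XV and XVIII, found in basement membranes, and transmembrane collagens. Among the last, Col25a1 encodes a neuronal membrane protein whose shed part binds amyloid.

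Spots were barcodes with at least 3000 unique molecular identifiers (UMIs, 1 for each captured molecule). The sections Y-Ctrl, O-Ctrl and O-Ex had 3409, 3498 and 3332 of them, which held between 97.5% and 98.1% of a section's UMIs, with a median of 15720, 14900 and 13680 per spot. All 4992 barcodes of the array design are shared by the 3 libraries, so a barcode does not mark a section. Levels are given as CPM, a gene's UMIs scaled by all UMIs of the same spots. They are compared within a gene or a fixed class, not between genes. O-Ctrl enters both comparisons, O-Ctrl over Y-Ctrl and O-Ex over O-Ctrl, which are therefore not independent. With 1 section per group no test between groups was possible, and intervals in brackets are 95% Poisson intervals (exact binomial for shares) that cover counting error alone. Animal-to-animal spread is not measured. A spot holds several cells, so in every comparison fewer cells of a type and less RNA per cell cannot be told apart.

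Spots were grouped by summed marker UMIs with no collagen among the markers. A spot was called rich in meningeal, arterial (smooth muscle), capillary, choroid plexus or ependymal markers when its score reached the pooled 98th percentile of all spots, and rich in white matter markers at the 90th. Neuronal spots reached none of these and had at least 55.4 neuronal marker UMIs per 10000, and the remaining spots formed their own group. Such groups are ranges of a score, not cell types, and 12, 20 and 19 of the meninges-rich spots also reached another cut. In Y-Ctrl, O-Ctrl and O-Ex there were 37, 52 and 45 meninges-rich spots, 38, 54 and 72 artery-rich, 45, 32 and 58 capillary-rich, 38, 35 and 104 choroid plexus-rich, and 1414, 1343 and 1481 neuronal spots. Within 10% of the cut lay between 18 and 27 spots for the meningeal score, 17 and 24 for the arterial, 34 and 49 for the capillary, but 3 and 8 for the choroid plexus score. As a check of the labelled tissue, the 10 neuronal markers summed to between 5899 and 6214 CPM in the 3 sections.

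Promoter sequence is shown for 4 members, each of which stands for a different setting in the results: Col3a1 for the meninges, Col8a1 for the choroid plexus, Col25a1 for neuronal spots and Col11a2 for white matter. RefSeq promoter windows on GRCm38.p6 were matched for 35 of the 44 members. The 250 bases before the start are printed 5′ to 3′ on the gene's strand, and capitals mark matches on either strand. The letters TATAAA stand for the TATA box. Those of the GC box, bound by the factor Sp1, are GGGCGG. A match named CCAAT is the CCAAT box bound by factor NF-Y. The last motif, TAATCC, is the core that OTX factors bind, and it can share letters with a CCAAT box, but no member window held it. These windows overlap no annotated exon. Those of Col3a1, Col8a1 and Col11a2 lie outside any annotated gene, and that of Col25a1 lies in an intron of the longer annotated Col25a1 model.
Col3a1, chr1:45311288-45311537, plus strand: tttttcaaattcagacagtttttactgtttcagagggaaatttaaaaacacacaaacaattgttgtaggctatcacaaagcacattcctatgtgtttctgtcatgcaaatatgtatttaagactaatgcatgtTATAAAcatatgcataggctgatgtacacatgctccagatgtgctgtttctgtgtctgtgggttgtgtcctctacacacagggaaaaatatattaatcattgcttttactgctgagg
Col8a1, chr16:57754738-57754987, minus strand: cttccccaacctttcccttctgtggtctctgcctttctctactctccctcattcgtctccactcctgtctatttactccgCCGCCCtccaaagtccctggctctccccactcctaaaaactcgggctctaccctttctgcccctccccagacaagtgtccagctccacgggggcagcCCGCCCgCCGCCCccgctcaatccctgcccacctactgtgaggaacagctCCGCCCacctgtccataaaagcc
Col25a1, chr3:130180595-130180844, plus strand: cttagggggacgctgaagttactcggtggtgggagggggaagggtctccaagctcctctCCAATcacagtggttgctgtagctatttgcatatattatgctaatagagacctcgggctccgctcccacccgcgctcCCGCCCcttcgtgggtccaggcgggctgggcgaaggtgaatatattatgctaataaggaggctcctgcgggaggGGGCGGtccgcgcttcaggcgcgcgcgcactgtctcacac
Col11a2, chr17:34038888-34039137, plus strand: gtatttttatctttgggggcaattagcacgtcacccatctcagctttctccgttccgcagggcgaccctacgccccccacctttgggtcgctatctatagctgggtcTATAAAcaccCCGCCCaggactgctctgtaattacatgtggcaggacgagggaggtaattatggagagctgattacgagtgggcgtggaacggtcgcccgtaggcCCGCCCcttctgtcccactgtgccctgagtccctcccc
The Col3a1 window holds 1 TATA box and no GC box and has a GC content of 35.2%. That of Col8a1 holds 4 GC boxes and no TATA box at 60.8% GC. In Col25a1 there are 2 GC boxes and 1 CCAAT box, and in Col11a2 2 GC boxes and 1 TATA box. Across members, 21 of 35 had a GC box, against 32.7% of 32817 promoters of the same length, and 13 had a CCAAT box, against 33.8%. The units differ slightly. Col6a2, Col9a1 and Col18a1 have more than 1 window and count if any of them matches, whereas the shares are per window. A TATA box was present in 5, against 12.4%, and TAATCC in 0, against 6.25%. Matches of letters are a description, not binding sites.

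**Figure D1:**
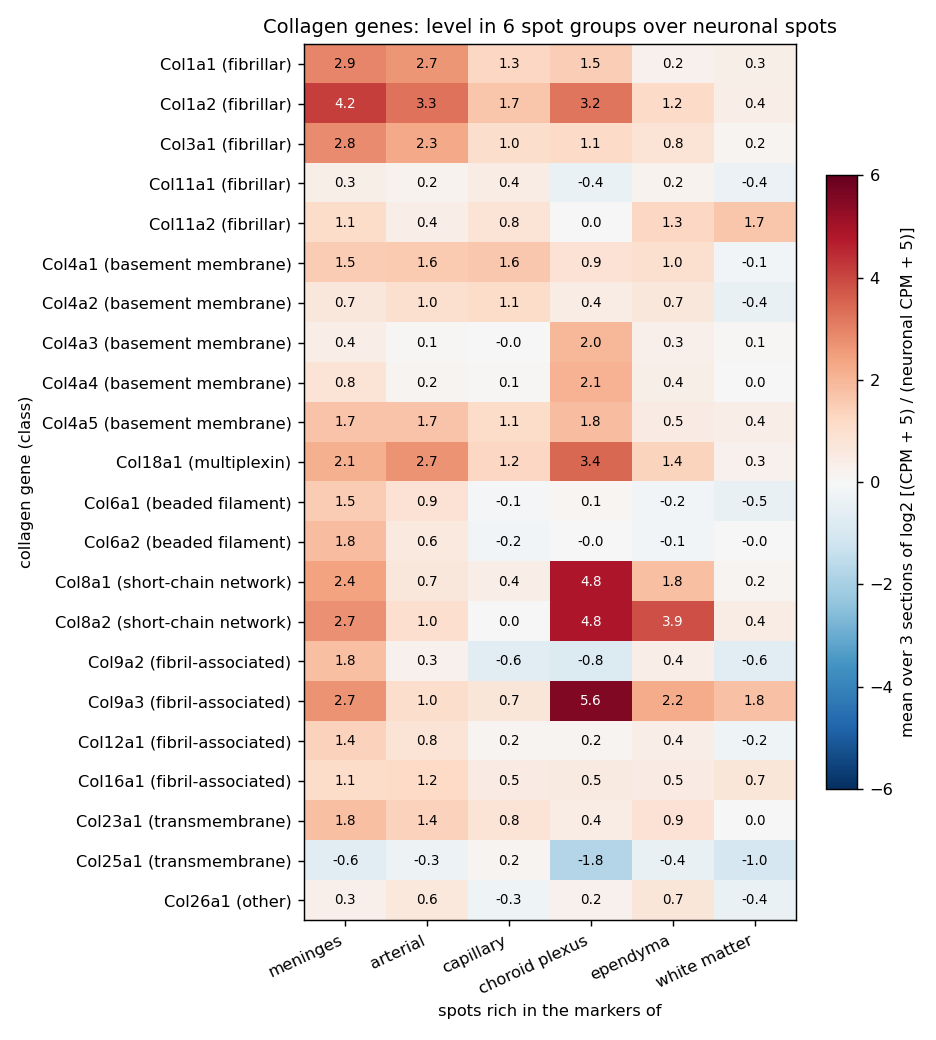
Mean over the 3 sections of the log2 ratio of CPM plus 5 in 6 groups of spots (columns) over neuronal spots, for collagen genes (rows, with class) that averaged 2 CPM or more or were called in any group. Type I and III chains are highest at the meninges and arteries, Col9a3, Col8a1 and Col8a2 at the choroid plexus, and Col25a1 is below 0 in every column but the capillary one.

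Meninges-rich spots held the broadest set of collagens. Of 22 members with at least 100 UMIs in these and neuronal spots together, 12 were at least 2-fold above neuronal spots in all 3 sections (on CPM plus 5), against 5.26% of the 13353 genes tested the same way. They were the type I and III chains Col1a1, Col1a2 and Col3a1, the basement membrane chains Col4a1 and Col4a5, and Col6a2, Col8a1, Col8a2, Col9a2, Col9a3, Col18a1 and Col23a1. The median log2 ratio of the 22 was 1.62, beside -0.16 over all genes. On neuronal UMIs alone 18 members would have been tested and 8 of the 12 called, so 4 entered through the group in which they are high and are no support for the count.

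Col1a2 (chr6:4504814-4541544), the alpha 2 chain of type I collagen, had 152, 118 and 149 CPM in meninges-rich spots of Y-Ctrl, O-Ctrl and O-Ex. Neuronal spots had 3.20, 2.53 and 3.37 CPM, a mean ratio of 17.9-fold on CPM plus 5. Its partner chain Col1a1 (chr11:94936224-94953042) had 66.7, 27.7 and 38.1 CPM at the meninges from 39, 19 and 25 UMIs. Col3a1, the chain of type III collagen that mixes with type I in fibrils, had 54.8, 29.2 and 25.9 CPM there. All of these lay far above the neuronal levels, which did not exceed 1.39 CPM for Col1a1 or 0.652 CPM for Col3a1. Meninges-rich spots made up between 0.955% and 1.27% of a section's UMIs but held 18.2% of all Col1a2 and 21.0% of all Col3a1 UMIs.

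Col9a3 (chr2:180597790-180622189), a chain of fibril-associated type IX collagen, had 58.2, 49.6 and 56.4 CPM in meninges-rich spots. Col8a1 had 20.5, 36.5 and 59.4 CPM and Col8a2 30.8, 29.2 and 42.7 CPM there. All 3 were higher still at the choroid plexus, as given further on. Choroid plexus markers summed to 577, 588 and 959 CPM in the same spots, against 11.4 to 36.6 in neuronal spots, and their part in these values was not tested. Blood markers were also high at the meninges, from 12160 to 15030 CPM, against 476 to 1280 in neuronal spots.

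Artery-rich spots shared the type I chains with the meninges, and both chains were also called at the choroid plexus, as given further on. There 7 of 20 members tested were at least 2-fold above neuronal spots in all sections, beside 3.29% of all genes: Col1a1, Col1a2, Col4a1, Col4a5, Col16a1, Col18a1 and Col23a1. On neuronal UMIs alone 18 would have been tested and 5 of the 7 called, and Col18a1, with 92 neuronal UMIs, is not among the 5. Col1a2 had 104, 61.8 and 60.4 CPM, a mean ratio of 9.71-fold. Col18a1, whose released end is endostatin, had 40.3, 22.2 and 43.3 CPM against 1.30, 0.607 and 1.04 in neuronal spots. The meningeal marker list summed to between 637 and 890 CPM in artery-rich spots, above 27.8 to 38.3 in neuronal spots, and its part in the collagen values was not tested.

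In capillary-rich spots 1 of 19 members, Col1a2, passed the same criterion, beside 3.22% of all genes. Col4a1 (chr8:11198423-11312826), which with Col4a2 builds the common type IV network, had 64.0, 24.2 and 50.5 CPM against 9.99, 10.0 and 12.4 in neuronal spots. O-Ctrl was the low section, with 9 UMIs, and its ratio of 0.96 on the log2 scale lay just under the 2-fold line of 1. With a pseudocount of 1 CPM the count was 5, and with a cut at the 95th percentile it was 0.

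Fibrillar and basement membrane genes were then compared as summed classes. The 11 fibrillar members summed to 328, 210 and 264 CPM in meninges-rich spots of Y-Ctrl, O-Ctrl and O-Ex, and to 14.9, 11.9 and 17.2 in neuronal spots. The 6 type IV members summed to 94.1, 77.4 and 86.9 CPM at the meninges and to 20.1, 18.7 and 22.7 in neuronal spots. Fibrillar genes were thus 13.7-fold and type IV genes 3.57-fold above neuronal spots on CPM plus 5, as means over the sections.

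**Figure D2:**
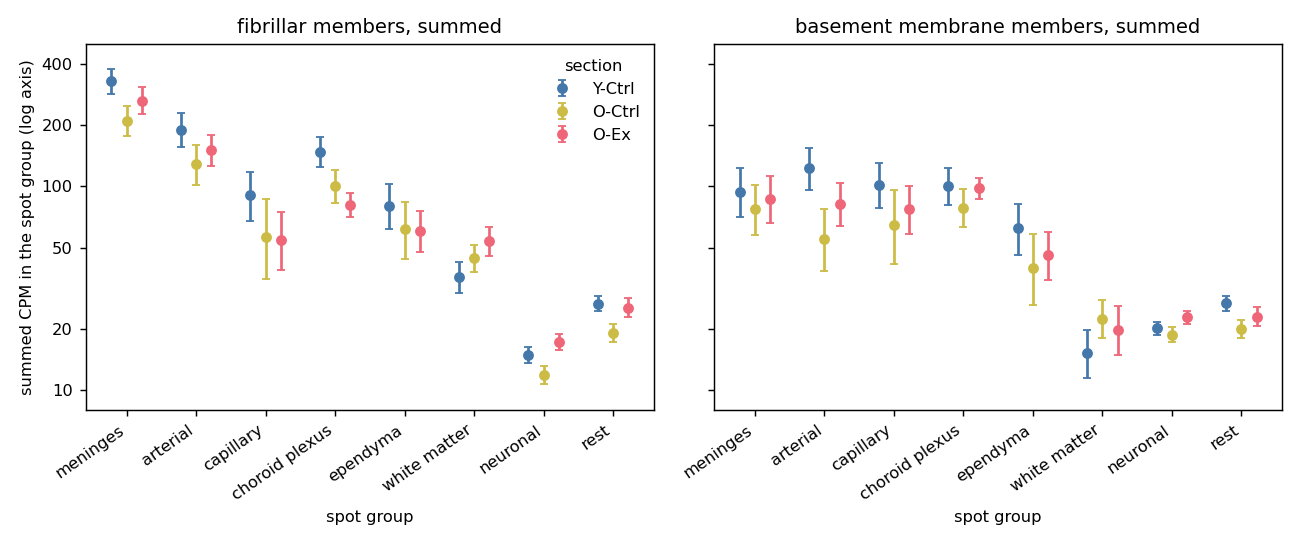
Summed CPM (log axis) of the 11 fibrillar (left) and 6 basement membrane (right) collagen genes in 8 groups of spots, with 1 point per section and 95% Poisson intervals. In Y-Ctrl, O-Ctrl and O-Ex, fibrillar genes have 328, 210 and 264 CPM at the meninges and 14.9, 11.9 and 17.2 in neuronal spots. Basement membrane genes lie between 55.4 and 123 CPM in all of the meninges-, artery-, capillary- and choroid plexus-rich groups.

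The difference between the classes, fibrillar minus type IV log2 ratio over neuronal spots, was 2.09, 1.88 and 1.87 at the meninges, above 0 in 3 of 3 sections. Artery-rich spots gave 0.94, 1.64 and 1.16. In white matter-rich spots the difference was 1.35, 1.35 and 1.57, with mean log2 ratios of 1.33 for fibrillar and -0.088 for type IV genes. The contrast was thus not confined to meninges and arteries. Ependyma-rich spots gave 0.68, 1.06 and 0.69. At the choroid plexus the difference was 0.88, 0.83 and 0.06. Capillary-rich spots gave 0.17, 0.32 and -0.14, and their means of 1.85 for fibrillar and 1.74 for type IV genes differed by less than the spread over sections.

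The size of this contrast depended on the most abundant members. Without Col1a2 and Col4a1, the most abundant of each class, the mean difference was 1.21 at the meninges and 0.77 at the arteries, and -0.95 at the choroid plexus, where the sign turned. When each class was given as the median of its members' ratios, the difference was -0.011 at the meninges, -0.345 at the arteries and -0.92 at the choroid plexus. Fibrillar genes were thus not all alike. Col11a1, for example, a minor fibril chain, was 1.27-fold above neuronal spots at the meninges and Col11a2 2.13-fold, against 17.9-fold for Col1a2.

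Chain pairs were set side by side by the ratio of their UMIs, which is read here across groups of spots and not as a ratio of proteins. Col4a1 and Col4a2 stand head to head on chromosome 8 with RefSeq starts 21 bases apart. Their ratio was 1.29 [1.17 to 1.41] in neuronal spots, 2.15 [1.46 to 3.24] in capillary-rich and 2.52 [1.64 to 3.95] in meninges-rich spots over the 3 sections. The meningeal interval lay above the neuronal one, from 78 and 31 UMIs, but the ratio in capillary-rich spots was 2.60, 0.818 and 2.77 in single sections, with O-Ctrl apart. In single sections the meningeal ratio was 3.67, 2.18 and 1.91 and the neuronal 1.16, 1.35 and 1.37.

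Type IX collagen, built from Col9a1, Col9a2 and Col9a3 chains, showed the widest split. Col9a2 had 254, 235 and 190 UMIs in neuronal spots and Col9a3 136, 122 and 130, a ratio of 1.75 [1.54 to 1.99]. In choroid plexus-rich spots Col9a2 had 2, 2 and 6 UMIs and Col9a3 407, 474 and 1207, a ratio of 0.00479 [0.00229 to 0.00883]. White matter lay between, at 0.116 [0.0770 to 0.168]. The order was the same in each section, with choroid plexus ratios of 0.00491, 0.00422 and 0.00497 and neuronal ratios of 1.87, 1.93 and 1.46. Chain ratios of type I collagen moved less: Col1a1 to Col1a2 was 0.310 [0.239 to 0.398] at the meninges and 0.171 [0.126 to 0.230] at the choroid plexus.

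At the choroid plexus, the tissue that makes cerebrospinal fluid, 9 of 23 members tested were at least 2-fold above neuronal spots in all 3 sections, beside 7.91% of all genes. On neuronal UMIs alone 18 would have been tested and 4 of the 9 called. The 9 were Col1a1, Col1a2, Col4a3, Col4a4, Col4a5, Col8a1, Col8a2, Col9a3 and Col18a1. Col25a1 was at least 2-fold lower in each section, as were 15.7% of genes. Choroid plexus-rich spots had 1184, 1076 and 1198 CPM of all collagens summed, against 94.6, 85.8 and 100.2 in neuronal spots.

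Col9a3 had 443, 415 and 443 CPM in choroid plexus-rich spots of Y-Ctrl, O-Ctrl and O-Ex. Neuronal spots had 4.03, 4.11 and 4.52 CPM, a mean ratio of 47.5-fold on CPM plus 5. The 3 sections were alike within counting error, with intervals of 401 to 488, 378 to 454 and 418 to 468. Col8a1 (chr16:57624258-57754737), whose GC-rich promoter is printed above and whose chain joins short helices into hexagonal sheets, had 183, 194 and 281 CPM. Neuronal spots had 2.43, 2.39 and 3.13. Col8a2 (chr4:126286793-126314330), the other type VIII chain, had 165, 135 and 186 CPM against 0.504, 0.674 and 1.22. O-Ex was the highest section for both type VIII chains, and its Col8a1 interval of 262 to 302 did not overlap those of Y-Ctrl (156 to 213) and O-Ctrl (170 to 222). For Col8a2 the O-Ex interval of 170 to 203 overlapped that of Y-Ctrl, 140 to 194.

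Col18a1 (chr10:77052178-77166548) had 62.0, 61.3 and 57.2 CPM at the choroid plexus and a mean ratio of 10.9-fold. Col1a2 had 96.8, 65.7 and 53.2 CPM, highest in Y-Ctrl. Col4a3 and Col4a4, the chains of the type IV network known from kidney and inner ear basement membranes, were rare in most other spots. They had 8.70, 17.5 and 23.1 CPM (Col4a3) and 14.1, 14.9 and 25.3 CPM (Col4a4) at the choroid plexus, with at most 0.348 CPM in neuronal spots. Over the 3 sections 91 of 136 Col4a3 UMIs and 99 of 172 Col4a4 UMIs came from these spots.

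**Figure D3:**
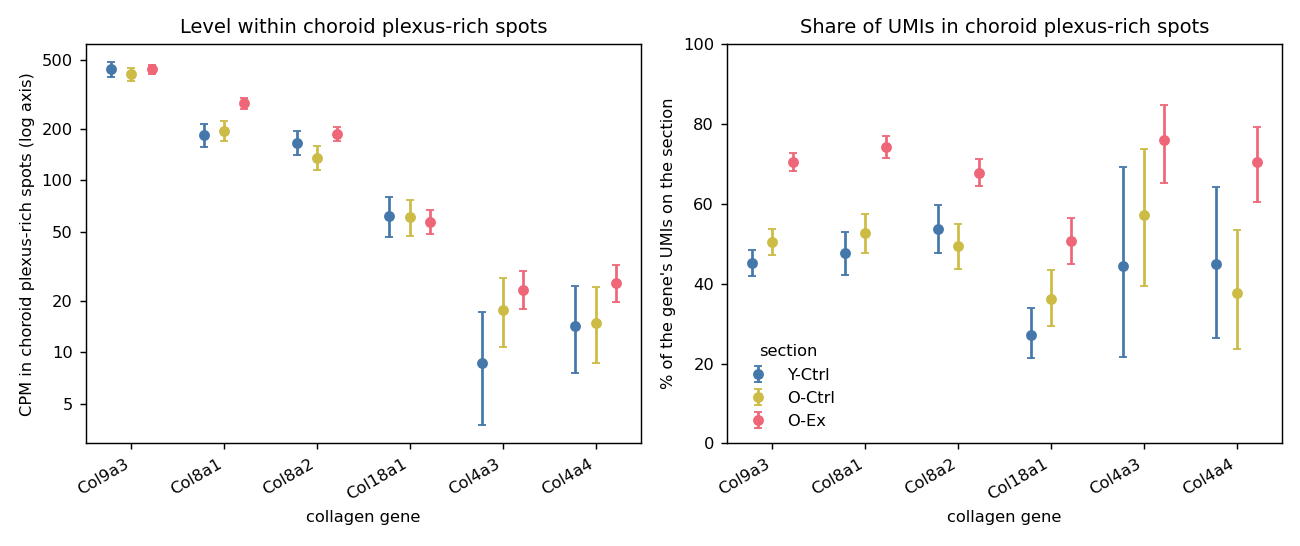
Left, CPM within choroid plexus-rich spots (log axis, 95% Poisson intervals), and right, the percentage of each gene's UMIs on the section that came from those spots (95% exact binomial intervals), for 6 collagen genes with 1 point per section. Levels of Col9a3 and Col18a1 overlap between sections on the left, while on the right O-Ex is the highest section for all 6 genes.

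Meningeal markers summed to 558, 594 and 503 CPM in choroid plexus-rich spots, above 27.8 to 38.3 in neuronal spots, and ependymal markers to 1180, 1045 and 679 CPM. Their part in the collagen values was not tested. Ependyma-rich spots themselves had 75.1, 81.5 and 79.5 CPM of Col8a2, a mean ratio of 14.4-fold, and 34.96, 29.2 and 54.9 CPM of Col9a3. There 3 of 20 members passed the 2-fold criterion, Col8a2, Col9a3 and Col18a1, beside 9.37% of all genes, and on neuronal UMIs alone 1 of them would have been called. Col6a5, a rare type VI chain, had 38 UMIs in choroid plexus-rich spots of O-Ctrl, 7 in Y-Ctrl and 7 in O-Ex, or 33.3, 7.61 and 2.57 CPM. Ependyma-rich spots of O-Ctrl were also highest for it, at 30.7 CPM against 14.2 and 11.5.

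In white matter-rich spots 2 of 20 members, Col9a3 and Col11a2, were at least 2-fold above neuronal spots in all 3 sections, beside 6.14% of all genes. Col9a3 had 26.9, 25.2 and 26.9 CPM, with no section apart, below its levels at the meninges and choroid plexus. Col11a2 (chr17:34039437-34066685), a chain of type XI collagen that sits inside cartilage fibrils, had 14.1, 22.9 and 26.6 CPM against 2.99, 2.83 and 3.44 in neuronal spots. Its ratio of O-Ctrl over Y-Ctrl in white matter was 1.62 [1.14 to 2.33]. White matter-rich spots held 24.1% of its UMIs. Summed fibrillar genes had 35.7, 44.6 and 53.9 CPM there, lowest in Y-Ctrl as for Col11a2, which is 1 of the 11 genes summed.

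Col25a1 (chr3:130131501-130599877) differed among regions of neuronal spots. These spots were split by markers of cortical layers and of other regions at the 95th percentile. Col25a1 had 55.5, 53.8 and 73.3 CPM in spots rich in layer 5 markers, against 19.0, 17.1 and 17.8 in all other neuronal spots. Over the sections that is 57.3 CPM [49.2 to 66.4] from 176 UMIs, 2.71-fold on CPM plus 5, with layer 5 above the rest in 3 of 3 sections. The count of such spots differed, at 102, 48 and 25.

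**Figure D4:**
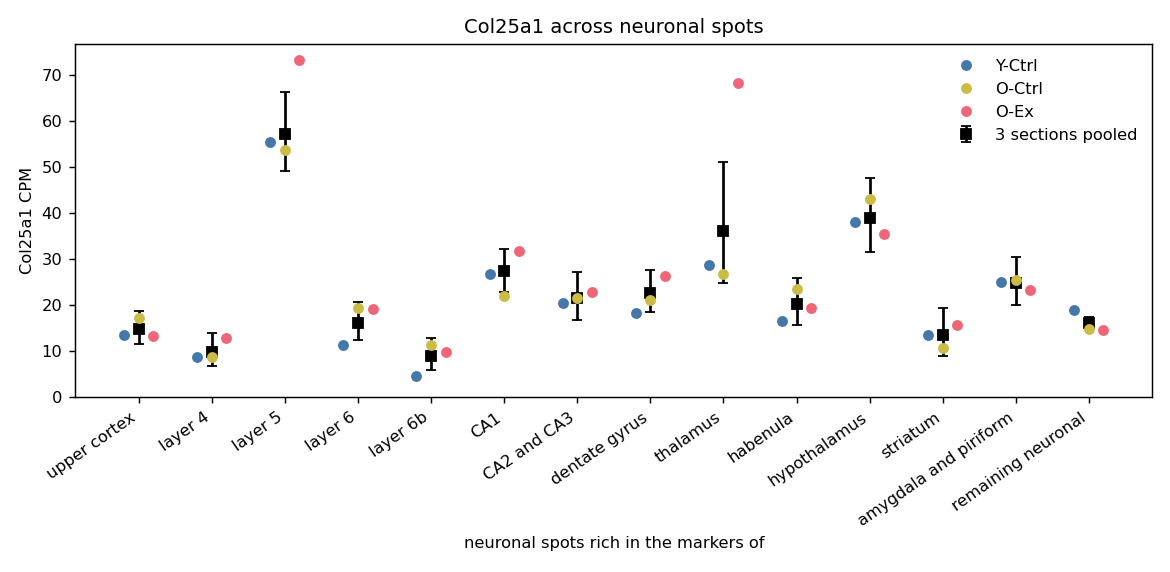
Col25a1 CPM in neuronal spots rich in markers of 13 regions and in the remaining neuronal spots, as colored points per section and black squares with 95% Poisson intervals for the 3 sections pooled. Layer 5 stands highest at 57.3 CPM and layers 4 and 6b lowest, at 9.89 and 8.87 CPM.

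Spots rich in hypothalamic markers had 38.9 CPM [31.5 to 47.6] of Col25a1, from 38.2, 43.1 and 35.5 CPM in the sections. Thalamic spots had 36.2 CPM [24.7 to 51.0], an interval that overlaps the hypothalamic one, from 28.8, 26.9 and 68.3 CPM. CA1 spots had 27.3 CPM [23.0 to 32.3], or 1.35-fold, and dentate gyrus spots 22.7 [18.5 to 27.6]. Layer 4 and layer 6b spots lay below, at 9.89 [6.72 to 14.0] and 8.87 [5.89 to 12.8] CPM. Among the 13 regions, layer 5 stood above its neighbour by more than counting error, and every other pair of neighbours in the order had overlapping intervals. The remaining spots outside every group, which had fewer neuronal markers, had 33.8, 26.6 and 35.5 CPM, above the 21.0, 18.2 and 18.6 CPM of neuronal spots. At the choroid plexus Col25a1 was at 1.09, 2.63 and 2.57 CPM.

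Whole sections were then compared between groups. Over Y-Ctrl, O-Ctrl and O-Ex, collagens summed to 142 [139 to 145], 134 [131 to 137] and 194 [190 to 198] CPM. In 18 members the mean over the 3 sections reached 2 CPM, and 26 did not. A member was called when CPM plus 5 differed by at least 1.5-fold, with no replicate check. Under this rule a member near 2 CPM cannot be called lower, even at a complete loss.

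From Y-Ctrl to O-Ctrl, 0 of 18 members were called higher and 0 lower, beside 0.495% and 0.236% of the 12720 genes with the same minimum. For the rarest of the 18, the absence of a lower call was set by the added 5 CPM. The median log2 ratio of the 18 was -0.02, with 7 above 0. Both type I chains and the type IV chains Col4a1, Col4a2 and Col4a5 were lower by counting, whereas Col4a3 and Col4a4 were higher and the interval of Col4a6 included 1. Col1a2 was at 9.48 and 7.10 CPM, a ratio of 0.749 [0.659 to 0.852], and Col1a1 at 3.11 and 1.93 CPM, 0.621 [0.487 to 0.790]. Col4a1 was at 13.2 and 11.1 CPM, 0.842 [0.758 to 0.936], and Col25a1 at 24.1 and 19.9 CPM, 0.827 [0.765 to 0.894]. Summed fibrillar genes stood at 0.815 [0.758 to 0.876] of Y-Ctrl and type IV genes at 0.850 [0.789 to 0.915]. In O-Ex, also read as old, Col1a2 was at 9.47, Col1a1 at 3.18, Col4a1 at 13.9 and Col25a1 at 21.4 CPM. Ratios of O-Ex over O-Ctrl were 1.376 [1.279 to 1.481] for fibrillar and 1.335 [1.238 to 1.439] for type IV genes. O-Ctrl was thus the lowest section for each of these genes and sums, and the lower values were not shared by both old sections.

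**Figure D5:**
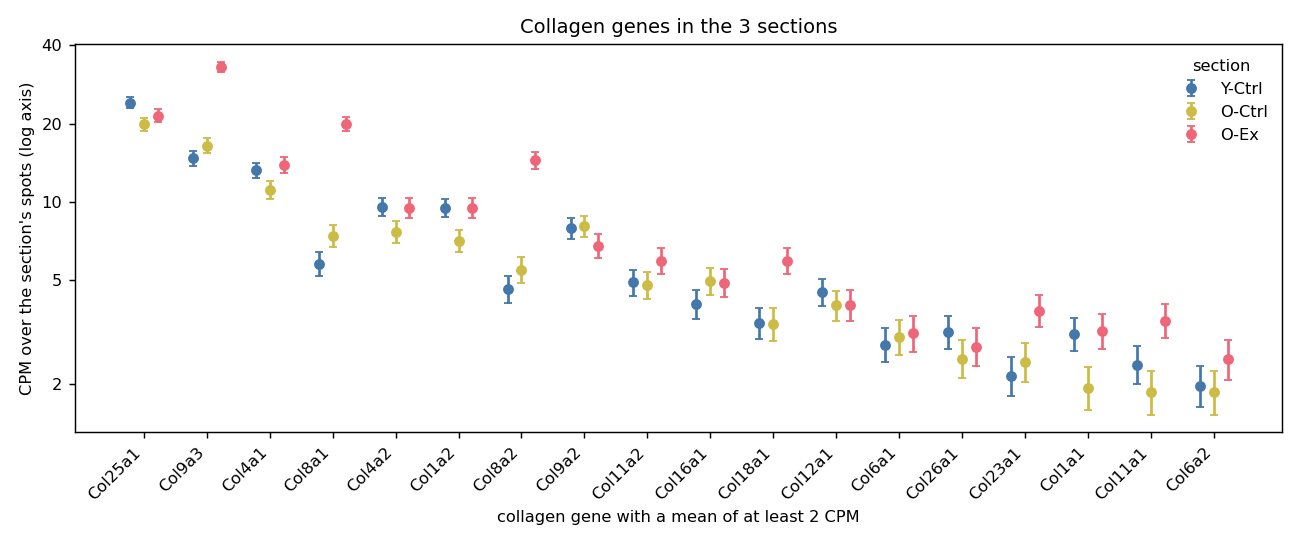
CPM over all spots of a section (log axis) with 95% Poisson intervals for the 18 collagen genes that averaged 2 CPM or more, with 1 point per section. O-Ex stands above both controls, with no overlap of intervals, for Col9a3, Col8a1, Col8a2, Col18a1, Col23a1 and Col11a1. For the others O-Ex overlaps at least 1 control. The share of all genes with O-Ex above both controls in this way was not counted. The intervals cover counting error alone, so the list is not shown to be particular to collagens.

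From O-Ctrl to O-Ex, 3 of 18 members were called higher, beside 0.66% of genes, and 0 lower, beside 0.197%. Col8a1 was at 5.77, 7.40 and 19.9 CPM in Y-Ctrl, O-Ctrl and O-Ex, a ratio of O-Ex over O-Ctrl of 2.69 [2.40 to 3.02]. Col8a2 was at 4.63, 5.47 and 14.4 CPM, a ratio of 2.64 [2.31 to 3.02]. Col9a3 was at 14.7, 16.5 and 33.0 CPM, a ratio of 2.004 [1.85 to 2.17]. For all 3 the O-Ex section was apart from both controls, whose own ratios were 1.28 (Col8a1), 1.18 (Col8a2) and 1.12 (Col9a3). The median log2 ratio of the 18 was 0.21 with 16 above 0, beside 0.06 over all genes. TMM scaling of the libraries also gave 3 calls.

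All 3 called genes were among the 9 of the choroid plexus, and O-Ex had more choroid plexus-rich spots. Choroid plexus-rich spots were 1.11%, 1.00% and 3.12% of spots and carried 1.503%, 2.004% and 5.26% of UMIs. They held 12.5%, 16.1% and 32.4% of collagen UMIs, and 47.6%, 52.6% and 74.2% of Col8a1 UMIs. On CPM plus 5, the log2 ratios of Col8a1, Col8a2 and Col9a3 for O-Ex over O-Ctrl were 1.005, 0.89 and 0.82 over all spots. Without choroid plexus-rich spots they were 0.28, 0.34 and 0.20 on the same scale, and 0 members were called. In neuronal spots alone the log2 ratios were 0.14, 0.13 and 0.06. Those spots of O-Ctrl and O-Ex held 71 and 90 UMIs of Col8a1, 20 and 35 of Col8a2, and 122 and 130 of Col9a3. At low levels adding 5 CPM pulls a log2 ratio toward no change, in neuronal spots and without choroid plexus-rich spots alike. Neither set of values, nor the count of 0 members, shows equal levels.

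Within choroid plexus-rich spots 0 of 5 members with at least 100 UMIs were called in either comparison. The background there was 3.85% higher and 1.66% lower for O-Ctrl over Y-Ctrl, and 2.73% and 4.95% for O-Ex over O-Ctrl. Col8a1 had a ratio of O-Ex over O-Ctrl of 1.45 [1.24 to 1.69] and Col8a2 of 1.38 [1.15 to 1.67] in these spots, whereas Col9a3 had 1.07 [0.959 to 1.19]. Intervals of the type VIII genes exclude 1 and that of Col9a3 includes it. Median choroid plexus scores were 56.9, 52.0 and 60.2 marker UMIs per 10000, and their part in the ratios was not tested.

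Within neuronal spots 0 of 16 members were called in either comparison, beside 0.254% higher and 0.183% lower for O-Ctrl over Y-Ctrl and 0.295% and 0.128% for O-Ex over O-Ctrl. Summed fibrillar genes were at 14.9, 11.9 and 17.2 CPM, with ratios of 0.799 [0.695 to 0.918] and then 1.45 [1.26 to 1.66]. Col11a1 had 83, 34 and 91 UMIs, or 2.46, 1.15 and 3.16 CPM, so O-Ctrl was the low section. Its ratios were 0.466 [0.303 to 0.702] for O-Ctrl over Y-Ctrl and 2.76 [1.84 to 4.22] for O-Ex over O-Ctrl, below the 1.5-fold line once 5 CPM is added. Col11a1 was also uneven among neuronal spots, with 6.73 CPM [4.66 to 9.41] in those rich in CA1 markers and 1.997 in the others. CA1 spots numbered 47, 50 and 66, and the part of region in these ratios was not tested. Col23a1, a transmembrane collagen, had 1.66, 1.35 and 2.75 CPM and a ratio of O-Ex over O-Ctrl of 2.04 [1.38 to 3.06].

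Within meninges-rich spots, summed fibrillar genes had 192, 144 and 173 UMIs, a ratio of 0.640 [0.512 to 0.798] for O-Ctrl over Y-Ctrl and of 1.25 [1.00 to 1.58] for O-Ex over O-Ctrl. On CPM plus 5 these are -0.63 and 0.32 on the log2 scale. Type IV genes had 55, 53 and 57 UMIs and log2 ratios of -0.27 and 0.16, from ratios of 0.822 [0.553 to 1.22] and 1.12 [0.759 to 1.67], both of which include 1. Median meningeal scores were 13.9, 16.9 and 16.5 per 10000 UMIs, lowest in Y-Ctrl, where fibrillar genes were highest. The makeup of these spots differed in other ways too. White matter markers summed to 3330, 5734 and 8052 CPM, neuronal markers to 3481, 2602 and 2946, capillary markers to 1080, 792 and 864 and microglial markers to 659, 689 and 1395, and their part in the fibrillar ratios was not tested. O-Ctrl was the low section for fibrillar genes in artery-rich spots too, at 189, 128 and 150 CPM, but at the choroid plexus O-Ex was lowest, at 148, 101 and 81.1 CPM.

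Genes that make, cut, bind or degrade collagen were read from lists. Between sections, the shares of all genes called were 0.495% higher and 0.236% lower for O-Ctrl over Y-Ctrl. For O-Ex over O-Ctrl they were 0.66% and 0.197%. Over neuronal spots, 5.26% of all genes passed the 2-fold criterion at the meninges, 3.29% at the arteries and 7.91% at the choroid plexus. These shares stand beside each list count below. Of 16 genes for chain modification and folding, 15 reached 2 CPM and 0 were called in either comparison. Serpinh1, the collagen chaperone of the endoplasmic reticulum, had 12.6, 13.5 and 20.9 CPM, a log2 ratio of O-Ex over O-Ctrl of 0.49, and P4ha1, a prolyl hydroxylase subunit, had 20.8, 20.1 and 28.6 CPM and 0.42. All 15 were above 0 in that comparison, with a median of 0.15, beside a median of 0.06 over all genes. The share of all genes above 0 was not counted. In meninges-rich spots 4 of 16 passed the 2-fold criterion used for the members, with Serpinh1 at 6.78-fold and Crtap, part of the prolyl 3-hydroxylation complex, at 3.80-fold. At the choroid plexus 4 of 16 passed, with Serpinh1 at 8.45-fold and Crtap at 3.91-fold, and the part of the larger number of choroid plexus-rich spots in the O-Ex ratio of Serpinh1 was not tested.

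For processing and cross-linking, 8 of 13 genes reached 2 CPM and 1 was called, higher in O-Ex than in O-Ctrl. It was Pcolce, the enhancer of the protease that trims fibrillar procollagen, at 9.09, 10.9 and 25.6 CPM and a log2 ratio of 0.94. On CPM plus 5, Pcolce was 34.7-fold above neuronal spots at the choroid plexus and 18.4-fold at the meninges. It had 243, 236 and 313 CPM at the choroid plexus against 1.78, 2.26 and 4.21 in neuronal spots. The part of choroid plexus-rich spots in the Pcolce ratio of whole sections was not tested. Tgm2, a transglutaminase that cross-links matrix proteins, had the highest ratio of O-Ctrl over Y-Ctrl, 0.46 on the log2 scale, at 6.36, 10.6 and 9.93 CPM. In the meninges 5 of 9 passed the 2-fold criterion, and 4 of 9 at the choroid plexus, beside 5.26% and 7.91% of all genes. On neuronal UMIs alone 8 were tested, and 5 and 4 of them passed.

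Among turnover genes 7 of 12 reached 2 CPM and 0 were called. Timp3, a matrix-bound inhibitor of metalloproteinases, had 59.7, 48.7 and 59.7 CPM and log2 ratios of -0.27 and 0.27. At the choroid plexus 5 of 8 passed the 2-fold criterion, and 3 of 8 at the meninges, or 4 and 2 of the 7 tested on neuronal UMIs alone. At the meninges Mrc2, an endocytic collagen receptor, was 8.00-fold above neuronal spots on CPM plus 5, from 51.3, 54.0 and 44.2 CPM against 1.60, 1.82 and 2.09.

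Among basement membrane partners, 10 of 14 tested passed the 2-fold criterion at the meninges, 6 of 12 at the arteries, 2 of 11 in capillary-rich spots and 8 of 13 at the choroid plexus. Several entered through the group in which they are high. On neuronal UMIs alone 10 were tested in each group, and 6, 4, 2 and 5 of them passed, beside the shares of all genes given above for the members. On CPM plus 5, Lamb2, a laminin chain, was 7.91-fold above neuronal spots at the meninges. Nid2, which links laminin to type IV collagen, was 12.6-fold above them at the choroid plexus, from 77.2, 63.0 and 67.9 CPM against 0.949, 0.573 and 1.08. Between sections 0 of 11 were called. Nid2 had 2.58, 2.65 and 5.42 CPM and the highest log2 ratio of O-Ex over O-Ctrl, 0.45, and Agrn, a heparan sulfate proteoglycan, had the lowest of O-Ctrl over Y-Ctrl, -0.23.

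Of 9 collagen receptors 5 reached 2 CPM and 0 were called between sections. Ddr2, a receptor kinase for fibrillar collagen, was 5.14-fold and Itgb1, the beta 1 integrin chain, 2.72-fold above neuronal spots at the meninges, where 2 of 5 passed. At the arteries 3 of 5 passed, and 3 of 5 at the choroid plexus. On CPM plus 5, log2 ratios of O-Ex over O-Ctrl ran from 0.04 to 0.13, which does not show equal levels. Without the added 5 CPM, the interval of that ratio excluded 1 for Ddr2 [1.021 to 1.622] and Itgb1 [1.033 to 1.185]. It included 1 for Itga1, Ddr1 and Lair1.

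The 26 members under 2 CPM had means between 0.0232 and 1.97 CPM. Col3a1 was at 2.55, 1.54 and 1.64 CPM, a ratio of O-Ctrl over Y-Ctrl of 0.606 [0.461 to 0.791]. Col6a5 was at 0.310, 1.33 and 0.733 CPM, and its ratio of O-Ctrl over Y-Ctrl of 4.29 [2.57 to 7.52] was the largest of the 44, with 39.1% of its UMIs in choroid plexus-rich and 33.8% in ependyma-rich spots. Col4a3 was at 0.294, 0.614 and 1.60 CPM and Col4a4 at 0.474, 0.789 and 1.89 CPM, both highest in O-Ex.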

How the data were processed

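Spatial gene expression was measured on 3 mouse brain sections with 10x Visium. Per the file headers, the authors made the deposited tables with Space Ranger 2.0.0, and per the submitters' processing notes the build was mm10. The deposited values are raw UMI counts per gene and barcode, for 31053 genes and all 4992 barcodes of the array, with no normalization. Total counts per section of Y-Ctrl, O-Ctrl and O-Ex were 62348064, 58234443 and 53196124, which limits the precision of rare genes. Intervals cover counting error only, since UMIs of 1 section say nothing of the spread between animals.

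Barcodes with at least 3000 UMIs were kept as spots, with no doublet caller because a spot is a region. Counts were summed over a section or a group of spots and scaled to CPM. Ratios of sections were taken on CPM plus 5 for genes averaging at least 2 CPM, or with at least 100 UMIs within a group, and called at 1.5-fold. Enrichment over neuronal spots was also taken on CPM plus 5 and called at 2-fold in all 3 sections. Spot scores were marker UMIs per 10000, and spot groups used pooled percentiles of 98, or 90 for white matter and 95 for neuronal regions. Poisson intervals and exact binomial (Clopper-Pearson) intervals are at 95%. No p-value was computed, because each group is 1 section. The calling steps were tested on simulated data.

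Members, classes, marker lists, pathway lists and rules were chosen with earlier results of these data known. Per-section values are given for members averaging at least 10 CPM, for members called between sections, and for members called in a group of spots with at least 100 UMIs there; others named were chosen for their class, chain partner or counts after their values were seen. From each pathway list, genes with the 2 highest or 2 lowest ratios in a comparison were eligible. Gene positions are from the GENCODE annotation of GRCm38 and promoters from RefSeq on GRCm38.p6. Python 3.11.15, numpy 2.4.6, scipy 1.17.1, pandas 2.3.3 and matplotlib 3.10.9 were used, and TMM factors came from edgeR 4.0.16 in R 4.3.3.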

Additional observations from a re-analysis of the deposited data

Results flagged for a closer look

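Barcodes under 3000 UMIs, which the comparisons leave out, also held collagen UMIs. They numbered 1583 in the Y-Ctrl library, 1494 in O-Ctrl and 1660 in O-Ex, and had 201, 134 and 252 collagen UMIs. That is 173.1 CPM [150 to 198.8] for Y-Ctrl, 108.9 [91.2 to 129] for O-Ctrl and 189 [166 to 214] for O-Ex, against 142, 134 and 194 CPM in spots. They are listed as collagen signal in barcodes that no comparison uses. Col8a1 had 12.9, 2.44 and 30.0 CPM and Col9a3 23.3, 4.06 and 26.3 CPM in these barcodes, lowest in O-Ctrl for both. Meningeal markers summed to 172, 153 and 178 CPM there, against 77.0, 85.5 and 116 in spots, and their part in the collagen values was not tested.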

How the results depend on the processing

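No paired analysis was possible because each group is 1 section and the labels carry no replicate numbers. Of 142 values under 16 alternative settings of 17 results, 113 stayed within counting error or within 1.5 times the reported count, 25 moved and 4 turned in sign. The count of 3 collagens called from O-Ctrl to O-Ex was 5 with a pseudocount of 1 CPM and 1 at 2-fold. It was 0 in neuronal spots alone, 0 without meninges-, artery-, capillary- and choroid plexus-rich spots, and 0 without choroid plexus-rich spots, the last an alternative chosen after seeing the data. These counts of 0 were taken on CPM plus 5, which at low levels pulls ratios toward no change. The count of 1 in capillary-rich spots was 3 with a lower minimum of UMIs per spot, 5 with a pseudocount of 1 CPM, 3 without mitochondrially encoded genes in the total, 5 with a cut at the 99th percentile and 0 at the 95th. Without the most abundant member of each class the fibrillar minus type IV difference was 1.21 at the meninges, 0.77 at the arteries and -0.95 at the choroid plexus. As medians of members it was -0.011, -0.345 and -0.92, and the arterial difference at a cut of the 95th percentile was 0.91. The cause of these shifts was not tested. Depth limits the rare members most, since 26 of 44 averaged under 2 CPM.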
